A study of Mus musculus with 12 samples.

Results

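The genes examined here encode 10 enzymes that place or remove methyl groups on lysine 36 of histone H3, the residue whose acetylated form (H3K36ac) was mapped in these cells. They were listed by the function of their products, with earlier results of these data known. The methyltransferases are *Setd2*, *Nsd1*, *Nsd2*, *Nsd3* and *Ash1l*, and the demethylases are *Kdm2a*, *Kdm2b*, *Kdm4a*, *Kdm4b* and *Kdm4c*. All 10 were found in the RefSeq gene table of GRCm38.p6, the assembly behind mm10, among 19808 protein-coding genes whose start and strand were known. H3K36ac ChIP-seq had been performed on 50000 spermatogonia-enriched cells per sample from the testes of male 129S1/Sv mice at postnatal day 5 (Pnd 5), in 3 WT and 3 Sirt7-/- samples numbered 2, 3 and 4 in each genotype, each from a different mouse and each with an input library of its own. The Sirt7-/- mice lacked the gene in every cell of the body, no agent was given, and the cells were enriched by differential plating without sorting. The values are the authors' lists of broad peaks, called per sample against its own input, which hold between 2045 and 2840 peaks in Sirt7-/- and 64, 294 and 906 peaks in WT replicates 3, 4 and 2. The lists hold no read depth, so a gene without a peak is a gene where none passed the authors' threshold, not one shown to lack the mark. At the starts of cell type marker genes, 4 of 11 spermatogonial markers (*Zbtb16*, *Gfra1*, *Etv5* and *Dazl*, each in 1 Sirt7-/- sample) and 1 of 13 markers of other testis cells (*Sox9*, in 1 Sirt7-/- sample) had a peak, too few calls to check the cell type from these lists. Of all protein-coding genes, 20.5% had a peak within 3 kb of their start in at least 1 Sirt7-/- sample.

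Lysine 36 of histone H3 can carry methyl groups or an acetyl group, but not both at once, and SIRT7 is a deacetylase that removes the acetyl group. SETD2 travels with elongating RNA polymerase II and trimethylates H3K36 along gene bodies, whereas NSD1, NSD2, NSD3 and ASH1L are responsible for mono- and dimethylation, and NSD1 shapes the DNA methylation of male germ cells before birth. KDM2A and KDM2B bind unmethylated CpG islands and remove H3K36 dimethylation, and KDM4A, KDM4B and KDM4C are JmjC enzymes that act on trimethylated H3K36 and H3K9.

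All 5 methyltransferase genes had an H3K36ac peak within 3 kb of their start in at least 2 of the 3 Sirt7-/- samples, which 10.9% of all protein-coding genes did. Among the 5 demethylase genes only *Kdm2a* had a peak there, also in 2 Sirt7-/- samples. The count by kind of enzyme was chosen after the data had been seen, and the difference between the kinds was not tested. A peak in this window is called a promoter peak below. Promoter peaks were called at 5, 6 and 5 of the 10 genes in Sirt7-/- replicates 2, 3 and 4, and at 2, 0 and 0 genes in WT replicates 2, 3 and 4. The mean was 5.33 ± 0.577 genes in Sirt7-/- and 0.667 ± 1.15 genes in WT samples (SD, n = 3 each), and the groups did not overlap. Over all protein-coding genes, 12.2 ± 1.86% had a promoter peak in a Sirt7-/- sample and 2.14 ± 2.23% in a WT sample (SD, n = 3 each), a difference in the same direction. In samples of many cells, more cells with the mark and more of the mark per cell cannot be told apart. At least 1 Sirt7-/- sample had a promoter peak at 6 of the 10 genes, against 20.5% of all protein-coding genes, and at least 1 WT sample at 2 of the 10, against 5.43%. More Sirt7-/- than WT samples had a peak at the same 6 genes, against 19.4% of all genes. *Setd2*, *Nsd1*, *Nsd2* and *Ash1l* had a peak in all 3 Sirt7-/- samples, which 5.40% of all genes did. *Setd2*, *Nsd1* and *Nsd2* had it in all 3 Sirt7-/- and no WT samples, against 2.59% of all genes. These 3 were also the genes whose covered length was higher in every Sirt7-/- than in every WT sample, which held for 4.0% of all genes. With 3 samples against 3, an exact test cannot fall below p = 0.1, and after adjustment over 19808 genes no gene had an adjusted p below 1 (Fisher's exact test, two-sided). Both WT peaks came from WT replicate 2, and without that sample *Ash1l* joined *Setd2*, *Nsd1* and *Nsd2*.

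**Figure D1:**
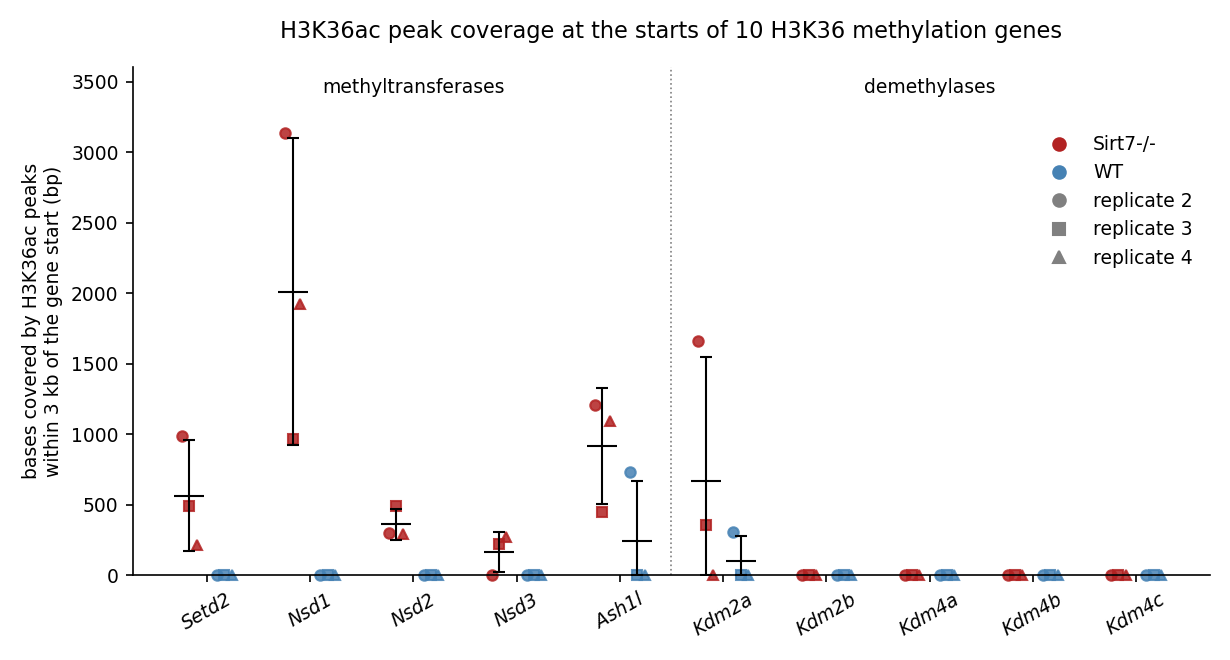
Bases covered by H3K36ac peaks within 3 kb of the gene start (y axis, bp) for the 10 genes (x axis), 1 point per sample, Sirt7-/- in red and WT in blue; horizontal lines are means and error bars SD (n = 3), stopped at 0, with neither drawn where a group is at 0 throughout. *Nsd1* reaches 3137 bp in Sirt7-/- replicate 2, *Ash1l* and *Kdm2a* have the only WT values above 0, and *Kdm2b*, *Kdm4a*, *Kdm4b* and *Kdm4c* are at 0 in all 6 samples.

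*Setd2*, whose product trimethylates H3K36, lies on the plus strand of chromosome 9 of mm10 from 110532500 to 110618633. Its promoter peak spanned 110532191 to 110533178 in Sirt7-/- replicate 2. The peak of replicate 3 spanned 110532590 to 110533080 and that of replicate 4 spanned 110532619 to 110532832, and no WT sample had one. All 3 shared 214 bp, which is the whole peak of replicate 4. They covered 988, 491 and 214 bp, a mean of 564 ± 392 bp (SD, n = 3), and the 3 WT values were all 0 bp (p = 0.1 in a two-sided exact permutation test). By the authors' -log10 q, the peak was among the first of its list in replicate 2, at rank 9 of 2840, and in replicate 3, at rank 85 of 2045. In replicate 4 it was near the end of the list, at rank 2533 of 2591. Without replicate 2 the mean difference in covered length fell from 564 to 352.5 bp. The presence of the peak was thus common to the 3 samples and its place in the lists was not. The reference sequence around the annotated RNA start at 110532597 (RefSeq, GRCm38.p6, chr9:110532347-110532626, plus strand, 250 bases before the start and 30 from it on) is shown because the peak of replicate 2 covers all 280 of its bases, that of replicate 3 covers 37 and that of replicate 4 covers 8. Capitals mark the CpG dinucleotides, 35 in all, as many as or more than in 95.4% of the 32851 windows of this kind.
Setd2: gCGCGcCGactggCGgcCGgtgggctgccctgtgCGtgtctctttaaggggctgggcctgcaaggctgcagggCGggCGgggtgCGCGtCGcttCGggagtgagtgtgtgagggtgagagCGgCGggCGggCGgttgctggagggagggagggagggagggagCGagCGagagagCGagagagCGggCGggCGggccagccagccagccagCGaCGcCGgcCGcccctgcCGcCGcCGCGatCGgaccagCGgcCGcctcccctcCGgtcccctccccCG

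*Nsd1*, on the plus strand of chromosome 13 from 55209782 to 55318325, had the widest peaks of the 10 genes. A single peak extended from 55209646 to 55212899 in Sirt7-/- replicate 2. Its 3254 bp made it the widest of all 2840 peaks in that list. In replicate 4 the peak extended from 55210291 to 55212215, and its 1925 bp put it at rank 28 of 2591 by width. Replicate 3 had a pair of separate peaks, from 55210826 to 55211126 and from 55212118 to 55212999, and both lay inside the span of the peak in replicate 2 except for the last bases of the second. Within the 3 kb window the peaks covered 3137, 966 and 1925 bp in replicates 2, 3 and 4, a mean of 2009 ± 1088 bp (SD, n = 3) with 0 bp in each of the 3 WT samples (p = 0.1, two-sided exact permutation). The region common to all 3 Sirt7-/- samples comprised 301 bp from 55210826 to 55211126 and 98 bp from 55212118 to 55212215. With a promoter window of 1000 bp instead of 3 kb, the peaks of replicate 3 fell outside and *Nsd1* lost its call there. By -log10 q the peaks of replicates 2 and 4 stood above the middle of their lists, at 889 of 2840 and 379 of 2591, and both peaks of replicate 3 stood below it, at 1267 and 1986 of 2045.

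*Nsd2*, on the plus strand of chromosome 5 from 33820676 to 33897966, had narrow peaks at nearly the same place in every Sirt7-/- sample. They began 148, 163 and 168 bp downstream of the start and ended 447, 650 and 462 bp downstream of it in replicates 2, 3 and 4. The shared part was 280 bp long, from 33820844 to 33821123. The covered length was 300.0, 488 and 295 bp, a mean of 361 ± 110.0 bp (SD, n = 3), while WT samples had 0 bp (p = 0.1 in the same two-sided exact test). These values varied less between the Sirt7-/- samples than those of *Setd2* and *Nsd1*. The ranks by -log10 q were 656 of 2840, 1555 of 2045 and 293 of 2591.

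*Nsd3*, on the plus strand of chromosome 8 from 25601601 to 25719667, had the fewest calls among the methyltransferase genes. Peaks of 219 bp, from 25602503 to 25602721, and of 268 bp, from 25602572 to 25602839, were called in Sirt7-/- replicates 3 and 4, and none in replicate 2 or in WT. Their midpoints lay 1011 and 1104.5 bp downstream of the start, and they shared 150 bp. The mean difference in covered length was 162 bp, and 244 bp without replicate 2. Both ranked low in their lists, at 1998 of 2045 and 2024 of 2591. The 2 of 3 Sirt7-/- against 0 of 3 WT samples gave p = 0.4 (Fisher's exact test, two-sided). The same 2 samples had further peaks upstream of the window, from 25597098 to 25597430 in replicate 3 and ending at 25597438 in replicate 4. They lay nearer the starts of *Letm2*, 559 and 551 bp away, and of the lncRNA gene *D830025C05Rik*.

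*Ash1l*, on the plus strand of chromosome 3 from 88950414 to 89079375, was the only methyltransferase gene with a WT peak. Its Sirt7-/- peaks spanned 88950030 to 88951237 in replicate 2, 88950754 to 88951198 in replicate 3 and 88950072 to 88951162 in replicate 4. The peak of WT replicate 2 spanned 88950357 to 88951087. They covered 1208, 445 and 1091 bp in Sirt7-/- and 731, 0 and 0 bp in WT samples, a mean of 915 ± 411 bp against 244 ± 422 bp (SD, n = 3 each; exact permutation test, two-sided, p = 0.2). The groups overlapped, since the WT replicate 2 value was above that of Sirt7-/- replicate 3. All 4 peaks shared 334 bp, from 88950754 to 88951087. These peaks were not particular to *Ash1l*, because *Dap3*, which encodes a mitochondrial ribosomal protein, starts on the minus strand at 88951213, 799 bp away, within 126 bp of each of them.

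*Kdm2a*, on the minus strand of chromosome 19 from 4316144 to 4398721, was the only demethylase gene with a promoter peak. The peak of Sirt7-/- replicate 2 was broad, from 4396449 to 4398108, and its 1660 bp ranked 45 of 2840 by width. Sirt7-/- replicate 3 had 353 bp, from 4397774 to 4398126, replicate 4 had no peak, and WT replicate 2 had 304 bp, from 4396725 to 4397028. The peak of WT replicate 2 lay entirely inside that of Sirt7-/- replicate 2 and shared 0 bp with that of Sirt7-/- replicate 3, so the calls of the window did not all refer to one place. The mean covered length was 671 ± 875 bp in Sirt7-/- and 101 ± 176 bp in WT samples (SD, n = 3 each; exact permutation test, two-sided, p = 0.4). Without Sirt7-/- replicate 2 the difference fell from 570 to 75.2 bp, so that sample carried most of it. With a window of 1000 bp the WT peak fell outside, and the gene then had no WT call. Peaks in 2 of 3 Sirt7-/- and 1 of 3 WT samples gave p = 1 (Fisher's exact test, two-sided).

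**Figure D2:**
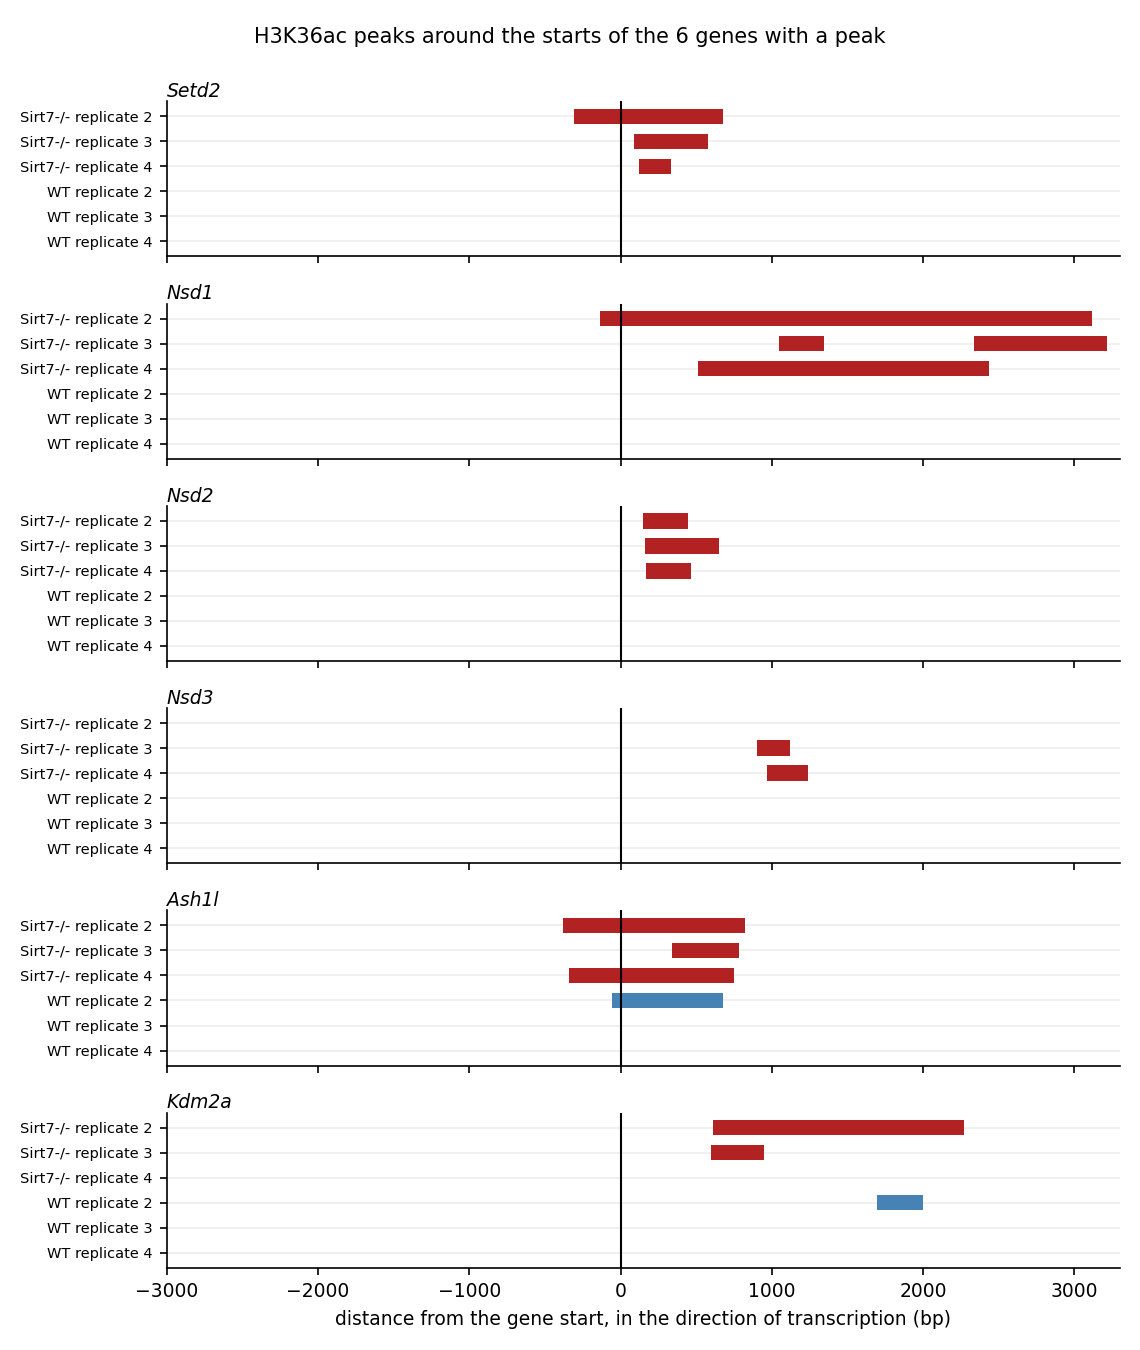
Extent of every H3K36ac promoter peak at the 6 genes with one, as distance from the gene start in the direction of transcription (x axis, bp; the vertical line is the start), with 1 row per sample, Sirt7-/- in red and WT in blue. The *Nsd2* peaks line up between 148 and 650 bp downstream, the *Nsd1* peaks extend past 3000 bp in replicates 2 and 3, and most bars lie to the right of the start.

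All 19 promoter peaks at these genes, 17 in Sirt7-/- and 2 in WT lists, had their midpoint downstream of the gene start. The midpoints lay between 184.5 bp (*Setd2*, Sirt7-/- replicate 2) and 2776.5 bp (*Nsd1*, Sirt7-/- replicate 3) downstream, with a median of 562 bp. The 19 peaks are repeated calls at 6 genes. The gene start used here is the outermost end of each gene, so RNA starts further inside lie downstream of it. The share of downstream midpoints was not computed over all genes. The position is therefore not shown to be particular to these genes. At the other genes of H3K36 chemistry named below, midpoints lay on both sides of the start. They ranged from -901.5 bp (upstream, *Zcwpw1*, Sirt7-/- replicate 2) to 1538 bp (*Zmynd11*, WT replicate 3). Only 5 of the 19 peaks overlapped the gene start itself. These were the replicate 2 peaks of *Setd2*, *Nsd1* and *Ash1l*, the *Ash1l* peak of Sirt7-/- replicate 4 and the *Ash1l* peak of WT replicate 2, and they reached at most 384 bp upstream. The *Nsd2*, *Nsd3* and *Kdm2a* peaks all began inside the gene, as did those of *Setd2* in replicates 3 and 4. The *Setd2* peak of replicate 3 still covered the annotated RNA start at 110532597, which lies 97 bp inside the gene. Of the 19 peaks, 10 were wider than the median of their own list, which was 480, 456 and 465 bp in Sirt7-/- replicates 2, 3 and 4 and 373 bp in WT replicate 2. The peaks of *Nsd1* and *Ash1l* were above it in most samples, and those of *Nsd3* were below it in both. By -log10 q, 8 of the 19 peaks stood above the middle of their list and 2, both at *Setd2*, in the best 10%. The 2 WT peaks, at *Ash1l* and *Kdm2a*, ranked 672 and 456 of 906.

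**Figure D3:**
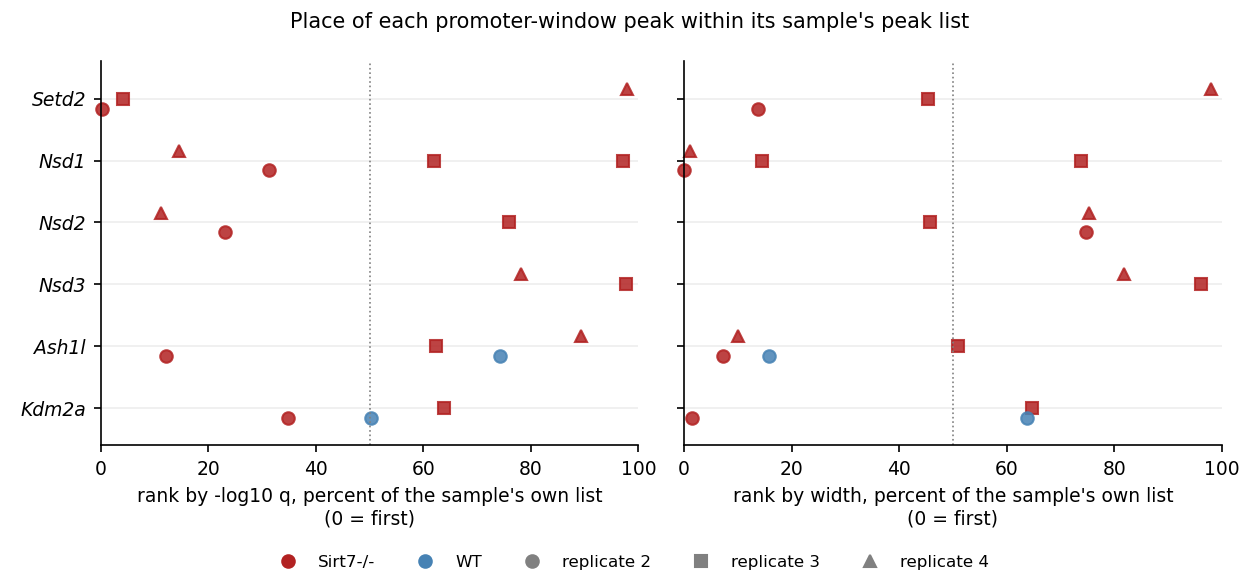
Place of each promoter peak within the peak list of its own sample, by the authors' -log10 q (left) and by width (right), as a percent of the list (x axes; 0 is the first place, the dotted line marks 50), for the 6 genes with a peak, Sirt7-/- in red and WT in blue. *Setd2* spans from 0.317% to 97.8% by -log10 q, and *Nsd1* stands at 0.0352% by width in Sirt7-/- replicate 2.

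The other 4 demethylase genes, *Kdm2b*, *Kdm4a*, *Kdm4b* and *Kdm4c*, had no promoter peak in any of the 6 samples and no peak anywhere within the gene. *Kdm2b* lies on the minus strand of chromosome 5 from 122870664 to 122989270, *Kdm4a* on the minus strand of chromosome 4 from 118136957 to 118180090, *Kdm4b* on the plus strand of chromosome 17 from 56325970 to 56403774 and *Kdm4c* on the plus strand of chromosome 4 from 74242497 to 74405864. The nearest call was a 219 bp peak of Sirt7-/- replicate 2, from 118134600 to 118134818, beyond the end of *Kdm4a* and 154 bp from the start of *St3gal3*, a sialyltransferase gene. None of the 10 genes had a peak in its body outside the promoter window in any sample, although they are 43.1 to 163 kb long. Over all protein-coding genes 2.74% had such a peak, and 6.61% of the 5867 genes of at least 40 kb. The 0 of 10 genes was therefore near the background.

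Reference start windows are given below for 3 of the demethylase genes without a peak, to set beside that of *Setd2* (RefSeq, GRCm38.p6, 250 bases before an annotated RNA start and 30 from it on, in the direction of transcription, CpG dinucleotides in capitals). They are the outermost window of *Kdm2b* (chr5:122989070-122989349, minus strand), a window of *Kdm2b* whose RNA start lies 88920 bp inside the gene (chr5:122900321-122900600, minus strand), the window of *Kdm4a* (chr4:118180014-118180293, minus strand), the outermost window of *Kdm4c* (chr4:74242247-74242526, plus strand) and a window of *Kdm4c* whose RNA start lies 9382 bp inside the gene (chr4:74251629-74251908, plus strand).
Kdm2b, outermost: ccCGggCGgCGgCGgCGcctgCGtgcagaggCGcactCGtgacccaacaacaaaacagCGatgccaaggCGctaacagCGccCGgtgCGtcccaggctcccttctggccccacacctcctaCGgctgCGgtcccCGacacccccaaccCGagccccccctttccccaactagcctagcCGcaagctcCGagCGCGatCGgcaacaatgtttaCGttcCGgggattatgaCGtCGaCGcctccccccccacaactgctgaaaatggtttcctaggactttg
Kdm2b, internal: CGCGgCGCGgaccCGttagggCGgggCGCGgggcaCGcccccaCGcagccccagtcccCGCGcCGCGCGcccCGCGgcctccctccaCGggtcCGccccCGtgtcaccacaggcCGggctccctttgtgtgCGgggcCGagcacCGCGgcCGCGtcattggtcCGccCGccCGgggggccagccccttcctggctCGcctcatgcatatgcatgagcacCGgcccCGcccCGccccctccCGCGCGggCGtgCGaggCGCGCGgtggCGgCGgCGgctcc
Kdm4a: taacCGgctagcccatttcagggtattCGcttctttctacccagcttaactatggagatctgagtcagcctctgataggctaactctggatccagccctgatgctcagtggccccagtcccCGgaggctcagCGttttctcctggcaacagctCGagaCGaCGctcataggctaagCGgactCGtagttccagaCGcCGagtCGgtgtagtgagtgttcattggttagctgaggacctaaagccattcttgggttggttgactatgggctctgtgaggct
Kdm4c, outermost: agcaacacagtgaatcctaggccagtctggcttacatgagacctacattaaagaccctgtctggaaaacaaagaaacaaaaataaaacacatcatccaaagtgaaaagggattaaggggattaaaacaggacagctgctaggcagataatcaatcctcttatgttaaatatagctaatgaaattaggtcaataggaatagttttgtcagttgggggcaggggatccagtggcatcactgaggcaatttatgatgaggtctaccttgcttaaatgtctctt
Kdm4c, internal: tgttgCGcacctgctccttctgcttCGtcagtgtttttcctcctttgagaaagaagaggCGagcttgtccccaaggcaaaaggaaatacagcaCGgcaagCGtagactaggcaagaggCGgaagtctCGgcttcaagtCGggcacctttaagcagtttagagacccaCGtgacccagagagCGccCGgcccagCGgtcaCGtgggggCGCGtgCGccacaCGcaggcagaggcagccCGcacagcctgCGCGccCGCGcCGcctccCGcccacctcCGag

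These windows held 27, 45, 12, 0 and 25 CpG in that order, against 35 at *Setd2*. The internal *Kdm2b* window was therefore richer in CpG than that of *Setd2* and had no peak, and the outermost *Kdm4c* window had no CpG at all. Among protein-coding genes with such a window, taking for each gene the window richest in CpG within 3 kb of the start, the median was 28 CpG (quartiles 21 and 36) for the 834 genes with a promoter peak in all 3 Sirt7-/- samples and 11 (quartiles 3 and 21) for the 11482 genes with none in any sample. *Setd2* was above the first of these medians, the outermost *Kdm2b* window was close to it without having a peak, and the *Kdm4a* window was close to the second. Both strands of the windows were also searched for 8 promoter motifs, each counted whether or not it overlapped another. The GC box, GGGCGG, was present in the *Setd2* window, in both *Kdm2b* windows shown and in the internal *Kdm4c* window. It was in 34.7% of all windows. A further *Kdm2b* window, with its RNA start 763 bp inside the gene and 17 CpG, held none of the 8 motifs. The CCAAT box was present in the internal *Kdm2b* window and in that of *Kdm4a*, and in 36.1% of all windows. The E-box CACGTG was found in the internal *Kdm4c* window and in 6.79% of all windows. The other motifs were in none of the windows shown. They were the TATA box (TATAAA, in 13.1% of all windows), the ETS motif (CCGGAAGT, 3.72%), the CRE (TGACGTCA, 1.74%), the NRF1 motif (GCGCATGC, 2.58%) and the YY1 motif (AAGATGGC, 2.29%).

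The lists differ in length, and the calls at these genes moved with it. When every Sirt7-/- list was reduced to its 906 best peaks by -log10 q, the length of the longest WT list, *Setd2*, *Nsd1* and *Nsd2* had a peak in more Sirt7-/- than WT samples, *Ash1l* was level and *Kdm2a* had more WT than Sirt7-/- calls. Over all protein-coding genes the share with more Sirt7-/- than WT calls then fell from 19.4% to 7.49%. The WT lists kept their 906, 64 and 294 peaks, so list lengths still differed between the genotypes. With the 64 best peaks of each sample, *Setd2* in Sirt7-/- replicate 2 was the only call among the 10 genes. At that length 0.828% of all protein-coding genes had a call in at least 1 Sirt7-/- sample. With a -log10 q of at least 2, 12 of the 19 peaks were kept, and *Nsd1* remained as the only gene with a peak in all 3 Sirt7-/- and no WT samples. The share of all protein-coding genes with such calls was 1.77%. *Nsd3* had no peak at that threshold.

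Other genes of H3K36 chemistry were taken from a list of 36, set by name. A promoter peak was called in at least 1 Sirt7-/- sample at 19 of the 36 and in at least 1 WT sample at 6 of them, and at 18 genes more Sirt7-/- than WT samples had one. Over all protein-coding genes these shares were 20.5%, 5.43% and 19.4%. Among other proposed methyltransferase genes, 2 of 5 had a promoter peak, and *Setd5* had it in all 3 Sirt7-/- and no WT samples, covering 832, 1516 and 1952 bp. The latter held for 2.59% of all protein-coding genes. The lncRNA *Gt(ROSA)26Sor*, the site of many mouse transgenes, starts within 3 kb of the *Setd5* peaks. Of 3 other demethylase genes, 1 had a peak, in a single Sirt7-/- sample.

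Among 15 genes of proteins that read H3K36 methylation, 8 had a promoter peak in at least 1 Sirt7-/- and 4 in at least 1 WT sample. The shares over all protein-coding genes were 20.5% and 5.43%. *Zmynd11*, a reader of trimethylated H3.3, had one in 3 of 3 Sirt7-/- and 2 of 3 WT samples and *Morf4l1*, which encodes the chromodomain protein MRG15, in 3 of 3 and 1 of 3. *Psip1* and *Mtf2*, whose products bind methylated H3K36 through a PWWP and a Tudor domain, each had one in 2 of 3 Sirt7-/- and 1 of 3 WT samples. *Zcwpw1*, whose product reads the methyl marks set by PRDM9 in meiosis, had peaks of 794, 626 and 1451 bp in the Sirt7-/- samples and none in WT, within 3 kb of the start of *Mepce* as well. A promoter peak in all 3 Sirt7-/- and no WT samples was found at 2.59% of all protein-coding genes.

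Of 8 genes of elongation factors that work with SETD2, 6 had a peak in at least 1 Sirt7-/- sample and 0 in WT. The shares over all protein-coding genes were 20.5% for at least 1 Sirt7-/- and 5.43% for at least 1 WT sample. *Cdc73*, a subunit of the PAF1 complex, was the only one with a peak in all 3, which 5.40% of all protein-coding genes had. Its peaks covered 447, 517 and 883 bp. *H3f3a*, which encodes histone H3.3, had peaks in 5 samples, covering 1063, 1648 and 1291 bp in Sirt7-/- replicates 2, 3 and 4 and 360, 0 and 254 bp in the WT replicates. The Sirt7-/- and WT values did not overlap there, although *H3f3a* was called in both genotypes. The genes of the acetylation enzymes *Kat2a* and *Kat2b* and the deleted *Sirt7* had no promoter peak in any sample, so a peak at *Sirt7* could not serve to check the deletion. Every Sirt7-/- list was longer than every WT list.

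**Figure D4:**
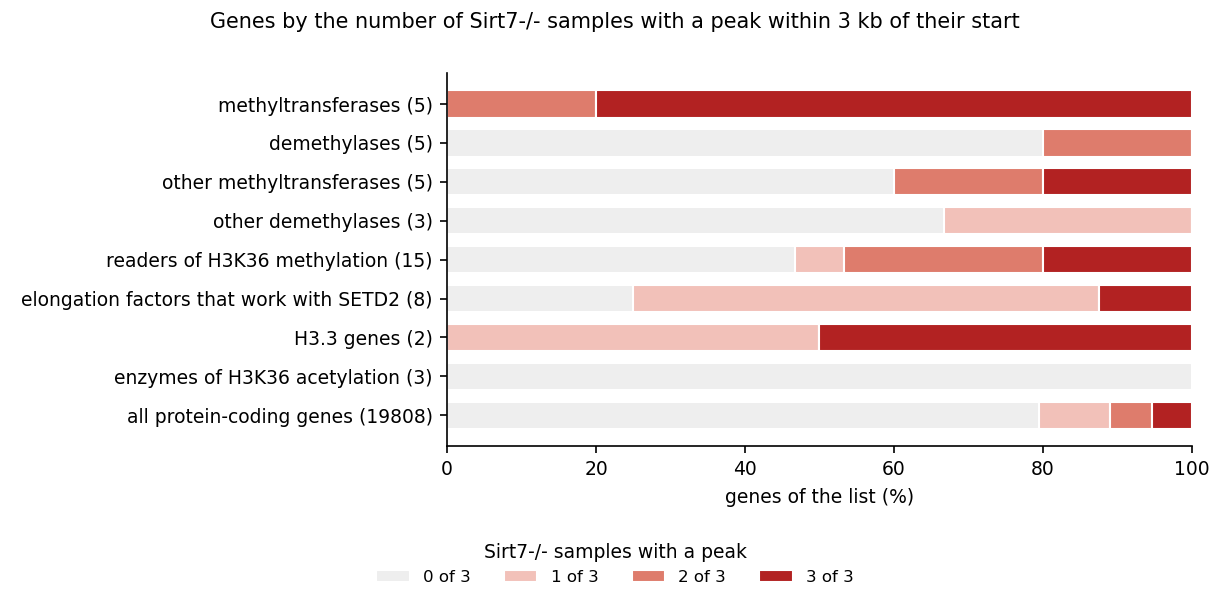
Share of genes (x axis, %) with a promoter peak in 0, 1, 2 or 3 of the 3 Sirt7-/- samples, for the listed methyltransferase and demethylase genes, for 6 companion lists and for all 19808 protein-coding genes (number of genes in parentheses). The 5 methyltransferase genes had 2 or 3 samples with a peak, 4 of the 5 demethylase genes had 0, and 79.5% of all protein-coding genes had 0.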

How the data were processed

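The members and the companion and marker lists were chosen with earlier results of these data known. The authors' reads had been trimmed (Trim Galore 0.6.6) and aligned to mm10 (Bowtie2 2.4.4.1), and unique, non-duplicate alignments with a mapping quality of 30 or more had been retained (SAMtools 1.19.2, Sambamba). MACS2 2.2.5 then called broad peaks per sample, with that sample's input as control and a broad cutoff of 0.1. No spike-in factor was applied. Versions are from the submitters' processing notes. Each of the 6 deposited lists gives a peak's position, a score, the fold over input (a ratio) and the -log10 of its p-value and q-value. The score restates -log10 q and was not used, and p and q were used only to rank or filter peaks. Read depth is not in the lists, so the precision of a single call is unknown.

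Gene positions came from the RefSeq table of GRCm38.p6, with 1 start per gene. Strand came from GENCODE vM39 by symbol or synonym and chromosome, which placed 19808 of 21900 protein-coding genes (90.4%). A promoter peak has any base within 3000 bp of that start, and a gene-body peak touches the gene but not that window. Start windows came from the RefSeq promoter table, which held 4 of the 10 genes. Samples were compared by Fisher's exact test and by exact permutation tests over the 20 assignments of the samples, both two-sided. Benjamini-Hochberg adjustment over all genes was applied to the Fisher p-values. The permutation p-values were computed for the listed genes and were not adjusted. All members are named, and companion genes where at least 3 of the 6 samples had a peak, with the acetylation enzymes added. The alternatives changed the window, the thresholds on q, p and width, the list lengths, the start and the samples. The procedure was tested on simulated data and run in Python 3.11.15 with NumPy 2.4.6, SciPy 1.17.1, pandas 2.3.3 and matplotlib 3.10.9.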

Additional observations from a re-analysis of the deposited data

How the results depend on the processing

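The number of listed genes with a promoter peak was higher in Sirt7-/- than in WT samples by 4.67 genes on average, and stayed higher in every alternative run. It was higher by 3.33 genes with a -log10 q of at least 2 and with a common minimum -log10 p of 5.99, by 2.0 with peaks of at least 500 bp, by 1.67 with Sirt7-/- lists of 906 peaks, an alternative chosen after seeing the data, and by 0.333 with 64 peaks in every sample. Genes called in every Sirt7-/- but no WT sample, and genes without overlap in covered length, each numbered 3, and each count was 1 under the first 3 of these alternatives and 0 under the last 2. Over all protein-coding genes, 2.59% were called in every Sirt7-/- but no WT sample. That share was 1.77%, 1.01%, 1.17%, 0.343% and 0.00505% under these alternatives, in the order given. The 6 genes with more Sirt7-/- than WT calls became 3 with 906 and 1 with 64 peaks. The share of all protein-coding genes with more Sirt7-/- than WT calls fell from 19.4% to 7.49% and 0.641%. Counts by kind of enzyme were also chosen after seeing the data. The 5 methyltransferase genes with a peak in any sample became 3 with peaks of at least 500 bp and 1 with 64 peaks, and the 1 demethylase gene became 0 with 64 peaks and 2 when either end of a gene counted as its start, which added *Kdm4a*. With 906 peaks the share of Sirt7-/- minus that of WT samples at *Kdm2a* turned from 0.333 to -0.333. Shorter lists hold fewer calls by construction. Leaving out each sample in turn gave differences of 4.33 to 5.33 genes. The calls showed no pairing by replicate number (correlations of deviations from the group means of 0.022, 0.009 and 0.016 over 4157 genes). With WT lists as short as 64 peaks, these correlations cannot decide whether samples of the same number were prepared together. With the number as a block the difference was 4.67 genes, 4 genes had a longer covered length in every pair, and no p could fall below 0.25. The mean number of listed genes with a gene-body peak differed by 0.0 between the genotypes under every alternative. With a window of 1000 bp, peaks did lie inside the gene but outside the window. They were at *Nsd1* in Sirt7-/- replicate 3 and at *Kdm2a* in WT replicate 2. Windows of 1000 and 5000 bp and counting only midpoints in the window moved none of the promoter counts above by over 1.5 times. With 1000 bp, the WT promoter call at *Kdm2a* was lost and its share difference became 0.667. The lists give no depth, so a missing call can be a mark below the threshold, above all in WT replicate 3 with its 64 peaks. The paper lists clean reads per sample. WT replicate 3 had more of them than Sirt7-/- replicate 3, and WT replicate 4 had the fewest of the ChIP samples.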
